A study of Homo sapiens with 8 samples.

Results

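The genes described here encode 2 families of receptor tyrosine kinases and the growth factors that bind them. They are the ERBB receptors EGFR, ERBB2 and ERBB3, the ERBB ligands AREG, EREG, TGFA and HBEGF, the receptors MET and MST1R of the MET family, and HGF, the ligand of MET. They were chosen by name, under a rule that uses no measured value, but with earlier results of these data known. They make up 10 of the 20136 protein-coding genes of the GENCODE annotation on hg19 that were measured in the same way. For each gene, peaks were taken within 2 kb of the transcription start site (TSS), in the rest of the gene, and within 100 kb either side of the gene, and these stretches together are called its window. The windows of AREG and EREG, which are neighbours on chromosome 4, overlap, so that the 10 windows join into 9 and span 2487 kb.

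The data are 8 lists of CUT&Tag peaks from HCT15, a long-established colorectal cancer line of human origin, with 4 libraries for succinylation of lysine 23 of histone H3 (H3K23su) and 4 for acetylation of its lysine 27 (H3K27ac). In CUT&Tag a transposase tethered to the antibody cuts the DNA near the modification, and the fragments released there are sequenced. For each mark there were 2 libraries of the parental line (HCT15-Pa), whose label names the solvent DMSO, and 2 of a derived line that resists 5-fluorouracil (HCT15-FR), whose label names 5-FU at 20 μg/mL. According to the study's methods, HCT15-FR cells were grown in the drug, a pyrimidine analog of the clinic, and spent some days in medium without it before experiments. Each line is 1 culture lineage, so resistance and any other difference between the lineages cannot be told apart, and nothing states that the replicates came from separate cultures, so that the p-values below measure only the spread between libraries.

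ERBB receptors and MET sit in the plasma membrane, dimerise when a growth factor binds, and signal through the RAS-ERK and PI3K-AKT pathways. ERBB2 has no known ligand of its own and acts as the partner of the other ERBB receptors, whereas AREG, EREG, TGFA and HBEGF are made as membrane-bound precursors that are shed and then bind EGFR. H3K27ac marks active promoters and enhancers, and in the colon epithelium EGFR ligands such as AREG and EREG are made by the epithelial cells themselves, whereas HGF is classically made by stromal cells.

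The lists held 65364 to 68365 H3K23su peaks and 70600 to 76676 H3K27ac peaks. They covered more sequence in HCT15-FR, 39.4 and 40.0 Mb against 33.0 and 33.5 Mb for H3K23su and 46.3 and 46.6 Mb against 38.8 and 39.5 Mb for H3K27ac, which is 1.19 times as much for each mark. The ratios of covered length below stand beside this 1.19, whose part in them was not tested beyond the scaled values given there. The lists hold no read counts, so the depth behind each peak is unknown, and where a list has no peak the modification was not detectable at this depth and calling threshold rather than shown to be absent. In a check of cell type, 8 of 12 genes that mark colon epithelial cells had peaks at the TSS in all 8 libraries and 0 had none. Of the fibroblast markers 6 of 7, of the endothelial markers 4 of 5 and of the leukocyte markers 2 of 6 had no TSS peak in any library. TSS peaks in all 8 libraries were found at 1 leukocyte marker, CD14, and at 0 fibroblast and 0 endothelial markers. PECAM1, also listed for endothelial cells, was not among the genes measured.

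Peaks of either mark stood at the TSS of 9 of the 10 genes in every library, and at HGF in none, where 33.4% of all genes had no H3K23su and 26.5% no H3K27ac peak in any library. Over all protein-coding genes, 54.7% had an H3K23su peak and 59.0% an H3K27ac peak within 2 kb of the TSS in all 4 libraries. The strength of a peak is given here as the percentile of its score, the −log10 of the MACS2 P value, within its own list, so that 98.0 means that 98.0% of that library's peaks scored no higher. At these 9 genes the percentile of the strongest TSS peak ran from 61.0 to 98.2 in H3K23su and from 70.2 to 98.0 in H3K27ac. The 3 ERBB receptors and 4 ERBB ligands chosen here, MET and MST1R therefore carried both marks at their start in HCT15-Pa and in HCT15-FR. No FR-only or Pa-only region, as defined below, lay within 2 kb of any of their TSSs. For comparison, 3.64% of genes had an FR-only and 2.10% a Pa-only H3K23su region there, and 2.66% and 2.61% an H3K27ac region.

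**Figure D1:**
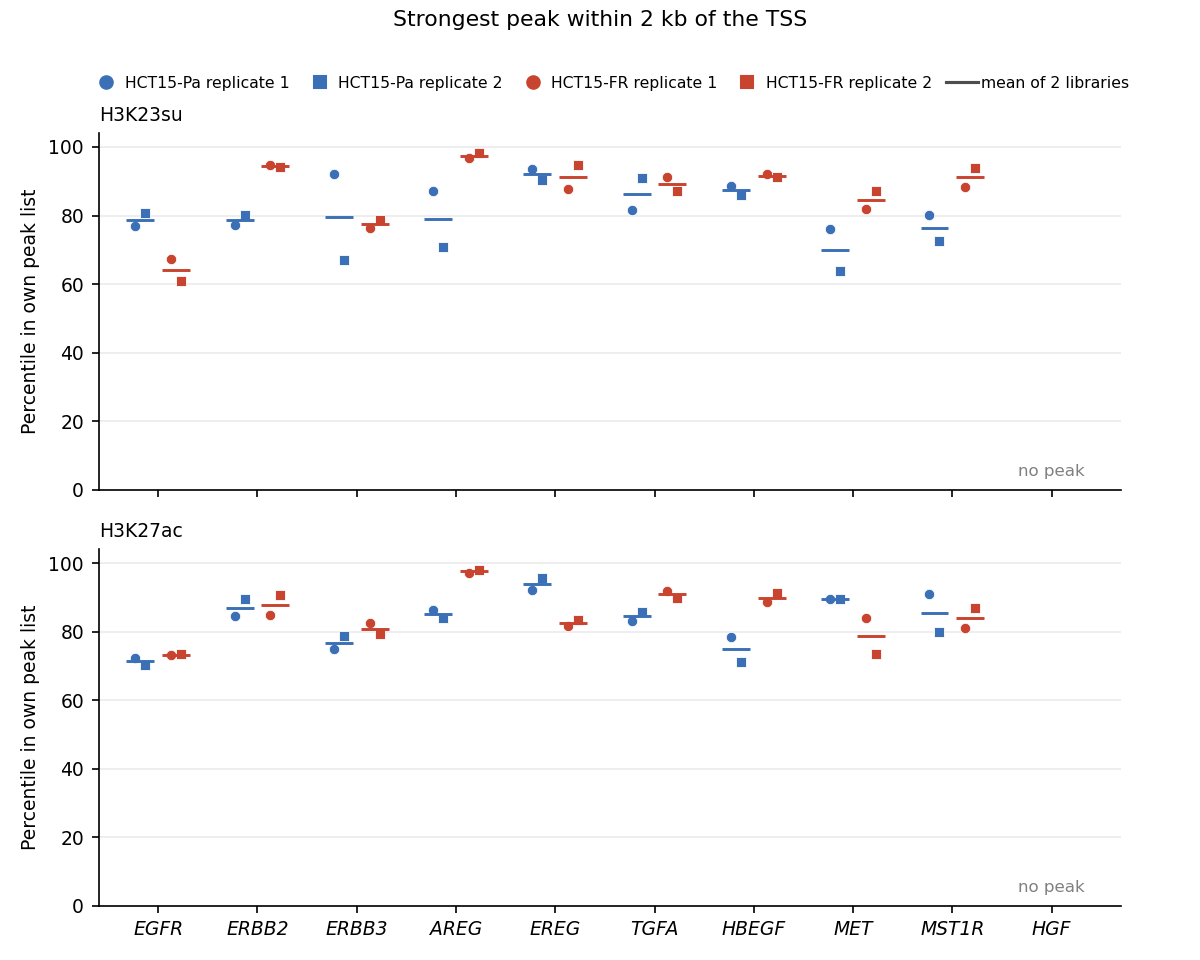
Percentile, within its own peak list, of the strongest H3K23su (top) and H3K27ac (bottom) peak within 2 kb of the TSS of each gene, by library, with the mean of the 2 libraries of each line as a bar. For AREG in H3K23su the HCT15-Pa points stand at 70.7 and 87.1 and the HCT15-FR points at 96.7 and 98.2, for EGFR and MET the order of the lines differs between the marks, and HGF has no peak.

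The lines were separated at the TSS by this percentile, with both HCT15-FR libraries above both HCT15-Pa libraries, for 5 genes in H3K23su (ERBB2, AREG, HBEGF, MET and MST1R) and for 5 genes in H3K27ac (EGFR, ERBB3, AREG, TGFA and HBEGF). Among all genes with TSS peaks in the 4 libraries, 28.4% were separated in that direction in H3K23su and 22.1% in H3K27ac. The reverse held for EGFR in H3K23su and for EREG and MET in H3K27ac, against 15.6% and 28.2% of all genes. AREG and HBEGF were higher in HCT15-FR in both marks, as were 8.34% of genes with TSS peaks in all 8 libraries, and 0 of the 10 genes were lower in both, beside 6.03%.

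Across the windows, peaks covered more sequence in HCT15-FR in both marks. H3K23su peaks covered 74.9 and 74.0 kb in the HCT15-Pa libraries and 103 and 96.1 kb in the HCT15-FR libraries, so the groups did not overlap. The means were 74.4 ± 0.634 kb and 99.6 ± 5.04 kb (SD, n = 2 each), a ratio of 1.34, and the two-sided exact permutation test of the difference of 25.2 kb gave p = 0.333. That is the smallest p that 2 libraries against 2 can give, so no difference here could pass a threshold of 0.05. H3K27ac peaks covered 85.7 and 90.7 kb in HCT15-Pa and 122 and 109 kb in HCT15-FR, 88.2 ± 3.59 kb against 116 ± 8.90 kb (SD, n = 2 each), a ratio of 1.31 (exact permutation p = 0.333). Both ratios stood beside 1.19 for the whole lists. After each list was scaled to the mean covered length of its mark, the differences were 9.92 kb for H3K23su and 10.2 kb for H3K27ac (exact permutation p = 0.333 each).

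Gene by gene, the covered length of the window was larger in both HCT15-FR libraries than in either HCT15-Pa library for 6 genes in H3K23su and 9 in H3K27ac, and smaller for 0 genes in both marks. Of all genes, 54.8% and 55.0% were larger and 11.8% and 13.4% smaller. The 6 genes with more H3K23su were also among the 9 with more H3K27ac, and 42.3% of all genes were larger in both marks. The median difference over the 10 genes was 1.10 percentage points of the window in H3K23su and 1.16 in H3K27ac, beside 0.383 and 0.378 over all genes. With the scaled lists 6 genes stayed larger in H3K23su (ERBB2, ERBB3, EREG, HBEGF, MET and MST1R) and 4 in H3K27ac (EREG, HBEGF, MET and MST1R), beside 30.5% and 26.1% of all genes, and 0 were smaller in either mark, beside 25.8% and 33.8%.

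**Figure D2:**
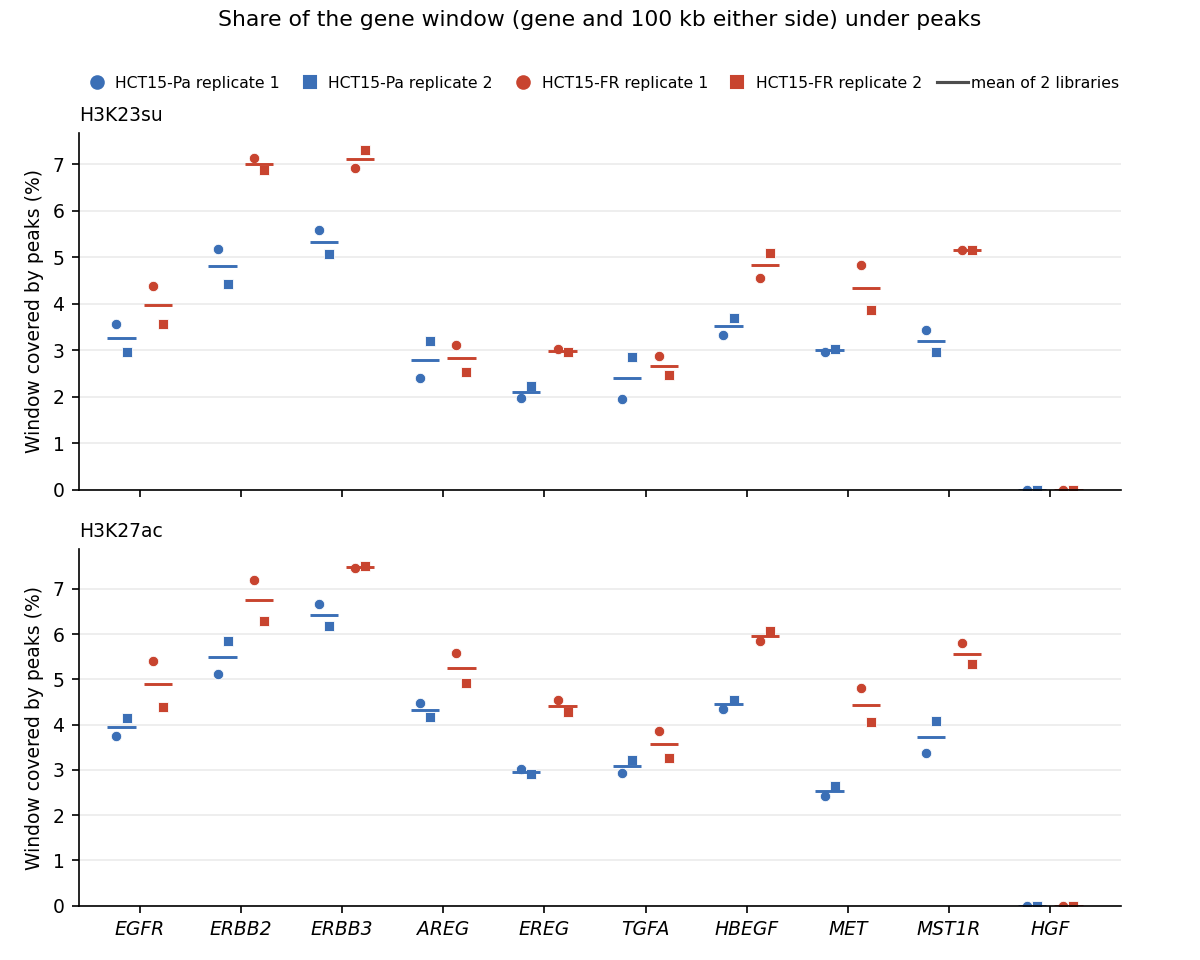
Share of each gene window under H3K23su (top) and H3K27ac (bottom) peaks, in percent, by library, with the mean of the 2 libraries of each line as a bar. ERBB2 and ERBB3 had the most densely covered windows, the HCT15-FR points stood above the HCT15-Pa points for 6 genes in H3K23su and 9 in H3K27ac, and HGF was at 0.

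**Figure D3:**
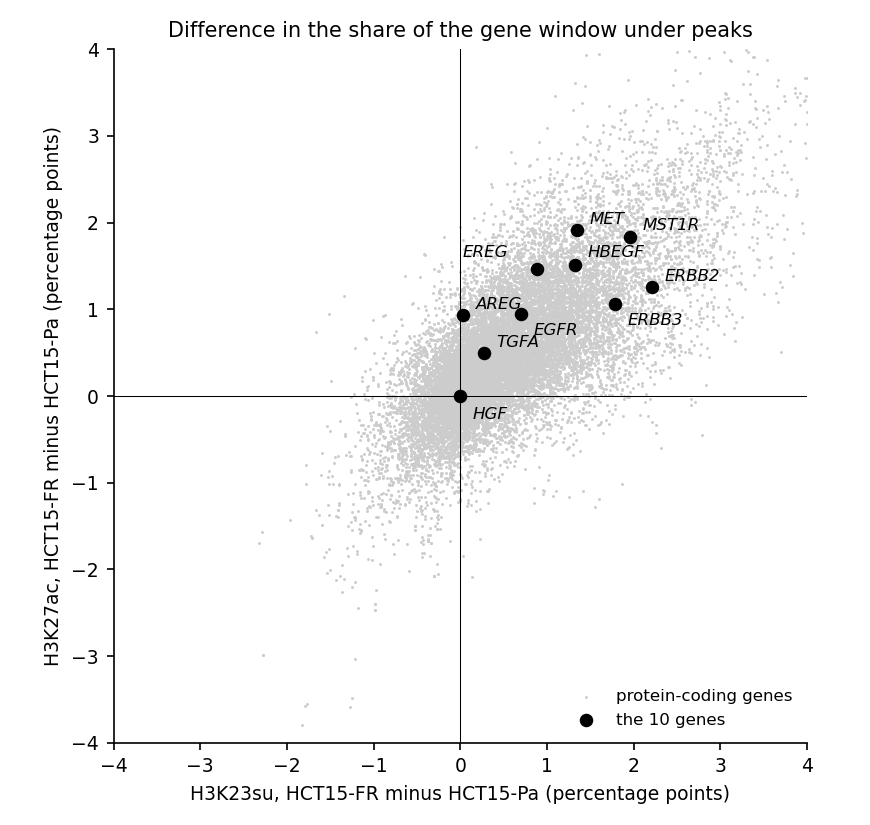
Difference between HCT15-FR and HCT15-Pa in the share of the gene window under peaks, in percentage points, for H3K23su (horizontal) and H3K27ac (vertical). Black points are the 10 genes and grey points all protein-coding genes, of which 110 lie beyond the axes at 4 points; ERBB2 and MST1R stand farthest to the right, MET and MST1R highest, and HGF at 0.

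To find where the lines differed, overlapping peaks of the 4 libraries of a mark were merged into regions. A region is called FR-only where each HCT15-FR library had a peak in it and no HCT15-Pa library did, Pa-only in the reverse case, and shared where all 4 had one. The windows held 241 H3K23su regions, of which 73 were shared, 19 FR-only, 6 Pa-only and 143 none of these. FR-only regions were 7.88% of them (exact 95% interval 4.81 to 12, counting error only), beside 7.95% over the genome, and Pa-only regions 2.49%, beside 5.01%. Of 247 H3K27ac regions 84 were shared, 27 FR-only, 12 Pa-only and 124 none of these. The FR-only share was 10.9% (exact 95% interval 7.33 to 15.5) beside 9.08%, and the Pa-only share 4.86% beside 4.53%. These shares are near those of the genome, except that of Pa-only H3K23su regions, whose interval of 0.919 to 5.34 still holds the genome's value. With any 1 library left out, so that fewer libraries had to hold or lack a peak, the counts ran from 32 to 45 and from 7 to 35 for H3K23su and from 35 to 48 and from 13 to 32 for H3K27ac.

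By gene, in H3K23su, ERBB2 and EREG had FR-only and no Pa-only regions, MST1R the reverse, 5 genes had both and ERBB3 and HGF neither. Over all genes, the first 3 classes held 28.9%, 15.3% and 34.4%. In H3K27ac, ERBB2, EREG and HBEGF had FR-only regions alone, 5 genes had both and ERBB3 and HGF neither, beside 32.9% of all genes with FR-only and 36.0% with both. With 10 genes whose windows differ in length, these counts are near the shares over all genes.

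**Figure D4:**
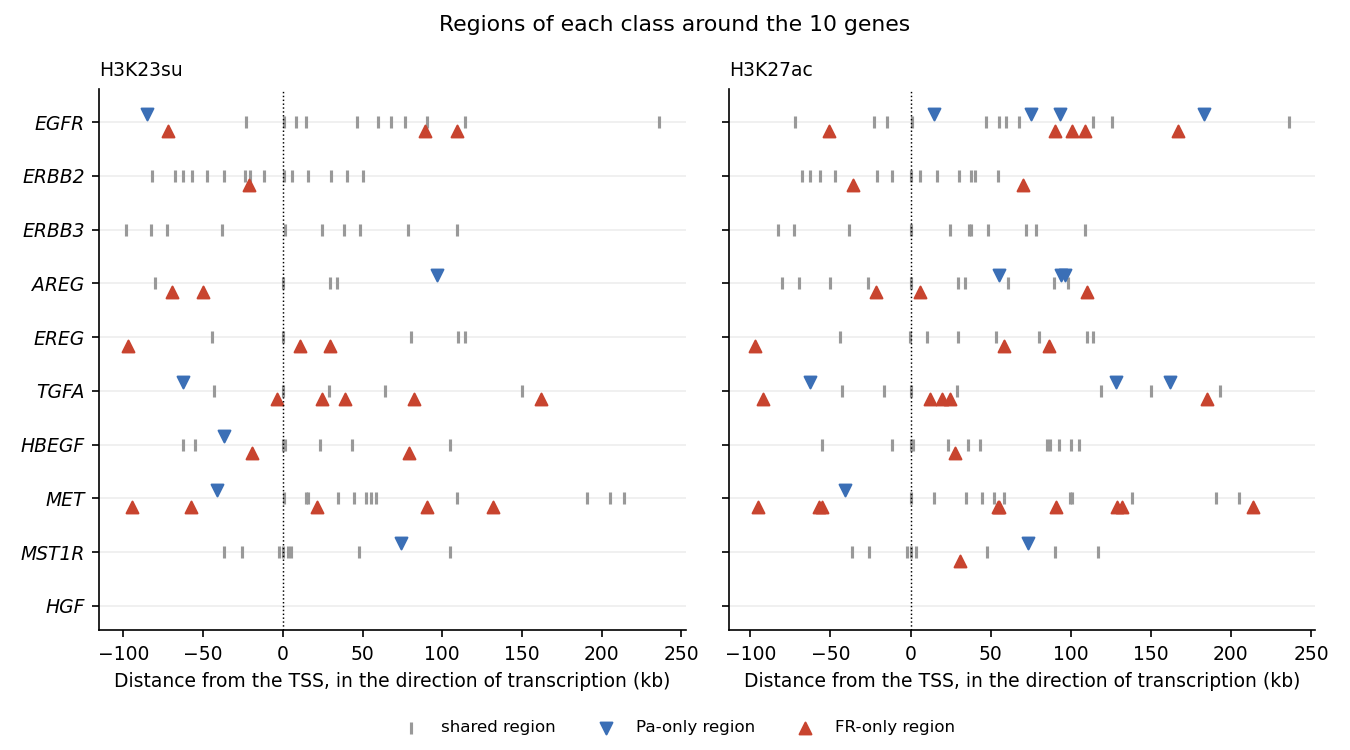
Position of shared, Pa-only and FR-only regions of H3K23su (left) and H3K27ac (right) in the window of each gene, as distance from the TSS in kb, positive in the direction of transcription. No FR-only or Pa-only region stood within 2 kb of a TSS, MET had the most FR-only H3K27ac regions (9), ERBB3 had shared regions alone among the 3 classes, and HGF had none.

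MET, the receptor of HGF, lies at chr7:116312250-116438431 on the plus strand. Its window of 326 kb held 9 FR-only H3K27ac regions among 36, and 0.531% of genes had at least as many. Such shares do not allow for window length, which among these 10 genes ran from 210 kb at AREG to 393 kb at EGFR. The 9 regions were 25.0% of the H3K27ac regions in the MET window. This stands beside 9.08% over the genome and 8.33% of the 48 regions within 1 Mb beyond either end of the window. In H3K23su 5 of 38 regions were FR-only, and 5.13% of genes had at least as many. H3K27ac peaks covered 7.88 and 8.60 kb of the window in HCT15-Pa and 15.7 and 13.3 kb in HCT15-FR, which do not overlap, 8.24 ± 0.506 kb against 14.5 ± 1.70 kb (SD, n = 2 each), a ratio of 1.76. H3K23su peaks covered 9.65 and 9.88 kb and then 15.8 and 12.6 kb, a ratio of 1.45, and the whole lists had 1.19 in each mark.

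**Figure D5:**
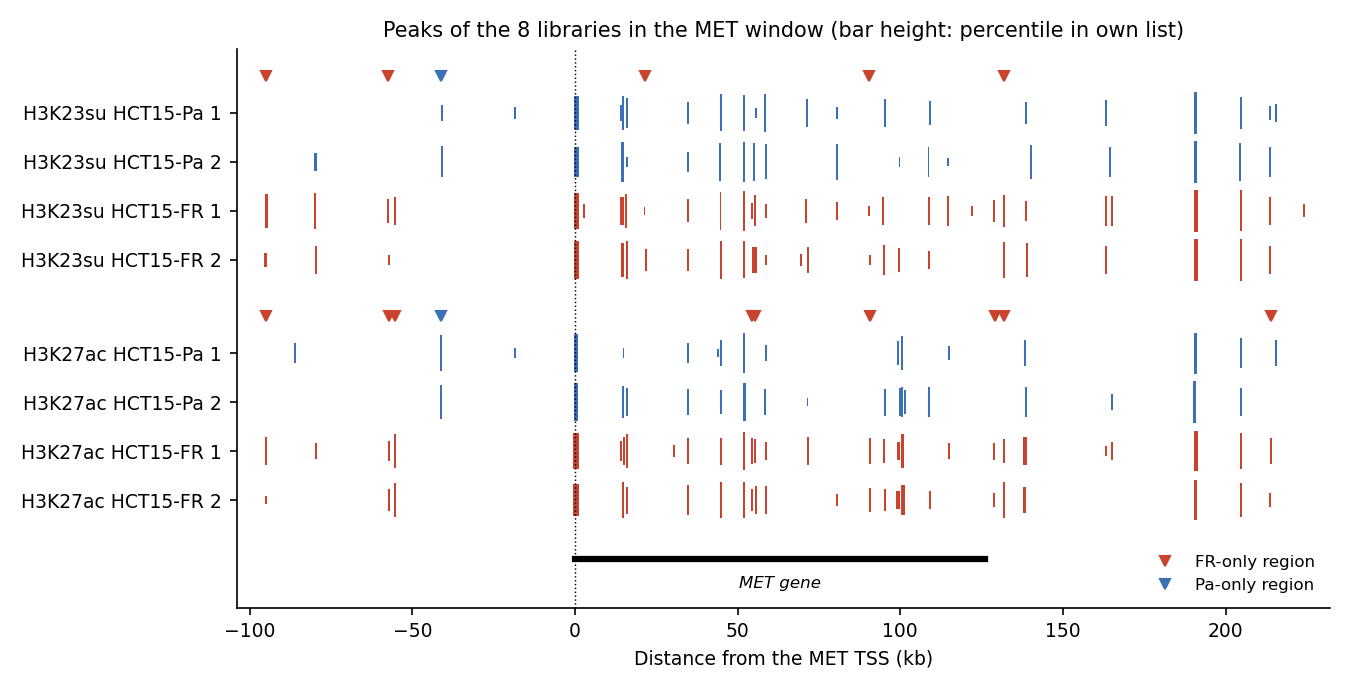
Peaks of the 8 libraries in the MET window, by distance from the MET TSS in kb, with bar height giving the percentile of the peak in its own list and very narrow peaks widened to be visible. Triangles mark FR-only and Pa-only regions of each mark, and 4 FR-only and 1 Pa-only positions recur in both marks.

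At 4 places in the MET window the same stretch was FR-only in both marks. Of all genes, 0.790% had at least as many, again without allowing for window length. They lay 94.9 and 57.5 kb before the TSS, in the noncoding gene COMETT, and 90.4 kb (in a MET intron) and 132 kb after it (beyond the gene). Among the genes measured, the nearest TSS was that of CAV1 for the first, at 52.2 kb, and of CAPZA2 for the last, at 58.6 kb. The most strongly marked stretch was the last, with H3K23su percentiles of 71.9 and 82.1 in the HCT15-FR libraries, and 50.4 and 81.3 in H3K27ac. The other 3 held at least 1 weak peak, with a lowest percentile of 8.85, 7.41 and 3.86. A Pa-only stretch in both marks lay 41.1 kb before the TSS in an intron of COMETT, with H3K23su percentiles of 25.3 and 68.8 and H3K27ac percentiles of 83.8 and 76.9 in HCT15-Pa. The strongest FR-only H3K27ac region, 55.4 kb before the TSS, had percentiles of 77.6 and 78.0, and an H3K23su peak in 1 library.

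The 300 bases around the midpoint of the overlap of both marks are shown for the Pa-only MET stretch, at chr7:116270958-116271257 (hg19, plus strand). Capitals mark exact matches on either strand to 5 short motifs. The letters TGACTCA stood for the factor AP-1, a dimer of FOS and JUN proteins. Forkhead factors of the FOXA kind were searched as TGTTTAC. For zinc finger proteins of the GATA family the search word was AGATAA, and for those of the KLF family it was GGGTGTG. The TEAD factors, which act with YAP, were searched by the word GGAATG.
MET Pa-only: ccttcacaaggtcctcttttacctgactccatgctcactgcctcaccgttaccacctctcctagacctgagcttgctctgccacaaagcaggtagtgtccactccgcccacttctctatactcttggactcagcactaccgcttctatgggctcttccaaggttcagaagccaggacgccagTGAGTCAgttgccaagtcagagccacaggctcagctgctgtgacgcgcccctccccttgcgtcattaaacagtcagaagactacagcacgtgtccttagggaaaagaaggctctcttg
It holds 1 AP-1 match, which 10.3% of equally long stretches at all H3K23su regions and 9.08% of those at Pa-only regions had, and 0% of its 30-base words stand again elsewhere on chromosome 7.

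At the MET TSS the order of the lines differed between the marks. The H3K23su percentile was 76.2 and 63.8 in HCT15-Pa and 82.0 and 87.3 in HCT15-FR, and the H3K27ac percentile 89.4 and 89.5 and then 83.9 and 73.6. This pattern was found in 6.32% of genes with TSS peaks in all 8 libraries. The covered length at the TSS was larger in both HCT15-FR libraries in both marks, 1515 and 1455 bp against 1523 and 1717 bp in H3K23su and 1161 and 1218 bp against 1581 and 1626 bp in H3K27ac. The H3K23su gap was narrow. Among all genes with TSS peaks in the 4 libraries of a mark, 45.8% were larger in this way in H3K23su and 35.0% in H3K27ac.

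MST1R, also called RON, is the other receptor of the MET family and lies at chr3:49924435-49941306 on the minus strand. Its H3K23su cover was 7.46 and 6.42 kb in HCT15-Pa and 11.2 kb in each HCT15-FR library, a ratio of 1.61, beside 1.19 for the whole lists, and the largest of the 10 genes in that mark. H3K27ac cover was 7.33 and 8.86 kb and then 12.6 and 11.6 kb, a ratio of 1.49, again beside 1.19. This came with few regions of 1 line alone, 1 Pa-only in H3K23su and 1 of each kind in H3K27ac, of which the FR-only one stood 30.8 kb after the TSS, beyond the gene, with percentiles of 79.2 and 81.9. Both Pa-only regions lay in TRAIP, the H3K23su one 74.4 kb after the MST1R TSS with percentiles of 0.0741 and 87.3, and the H3K27ac one 73.3 kb after it with 36.3 and 28.7. Its H3K23su TSS percentile was 80.2 and 72.6 in HCT15-Pa and 88.4 and 94.0 in HCT15-FR, while in H3K27ac the libraries overlapped, with 91.0 and 79.8 against 81.0 and 87.0.

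HGF, at chr7:81328326-81399754, had no peak of either mark in any of the 8 libraries, neither at the TSS nor in the rest of its 271-kb window. Of all genes, 2.34% were as bare. Within 1 Mb beyond either end of the window there were 29 H3K23su and 36 H3K27ac regions. These were the fewest among the receptors and ligands chosen here, with MET next at 69 and 48. Whether peaks could be called within the HGF window itself was not tested.

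EGFR, the receptor of AREG, EREG, TGFA and HBEGF, lies at chr7:55086710-55279321. It had the longest window of the 10 genes, 393 kb, and the most regions, 47 in H3K23su and 48 in H3K27ac. At its TSS the H3K23su percentile was 76.9 and 80.6 in HCT15-Pa and 67.2 and 61.0 in HCT15-FR, while the H3K27ac percentile was 72.4 and 70.2 and then 73.1 and 73.5. Both gaps separated the libraries, in opposite directions, as in 2.50% of genes, and the H3K27ac gap was small. The H3K27ac covered length at the TSS was smaller in HCT15-FR, 1742 and 1867 bp in HCT15-Pa against 1679 and 1155 bp. Of all genes with H3K27ac TSS peaks in the 4 libraries, 10.9% were smaller in this way. In H3K23su this length overlapped, with 1872 and 1553 bp against 1667 and 1795 bp. H3K27ac had 4 Pa-only regions in EGFR introns, 14.6 to 183 kb after the TSS, and 4 FR-only regions in EGFR introns, 90.2 to 167 kb after it, with 1 more FR-only region 51.2 kb before the TSS. The strongest was FR-only, at chr7:55176408-55177510, with percentiles of 75.5 and 75.8 in HCT15-FR, and lay on an H3K23su region shared by all 4 libraries. The H3K23su cover of 14.0 and 11.7 kb against 17.2 and 14.0 kb overlapped between the lines (exact permutation p = 0.667). H3K27ac cover was 14.7 and 16.3 kb against 21.2 and 17.3 kb. The strongest Pa-only H3K27ac region, 14.6 kb after the TSS, had percentiles of 41.3 and 17.3. In H3K23su the strongest region of 1 line was Pa-only, between genes 85.5 kb before the TSS, with percentiles of 67.7 and 75.7, and the strongest FR-only one lay in an EGFR intron 89.3 kb after it, with 58.1 and 30.1. An EGFR stretch 109 kb after the TSS was FR-only in both marks, with a lowest percentile of 2.89.

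ERBB2, the partner receptor, lies at chr17:37844167-37886679 in a gene-dense stretch. Its H3K23su TSS percentile was 77.2 and 80.1 in HCT15-Pa and 94.7 and 94.1 in HCT15-FR, with scores of 5.40 and 5.59 against 8.85 and 8.65. In H3K27ac it was 84.6 and 89.4 against 84.9 and 90.6, which overlap. Its window was covered by H3K23su for 12.6 and 10.7 kb and then 17.3 and 16.7 kb, a ratio of 1.46 beside 1.19 for the whole lists, and its difference in the share covered was larger than that of 94.6% of genes. H3K27ac cover was 12.4 and 14.2 kb against 17.5 and 15.3 kb. FR-only were 1 H3K23su and 2 H3K27ac regions, which lay outside the gene, and 0 regions were Pa-only. The H3K23su region stood 21.3 kb before the TSS in an intron of PGAP3, with percentiles of 86.2 and 29.0, and the stronger H3K27ac region 70.2 kb after it in an intron of IKZF3, with 66.2 and 61.9.

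ERBB3, which binds neuregulins and has a weakly active kinase domain, lies at chr12:56470583-56497289. No region in its window was FR-only or Pa-only, and 10 of 22 H3K23su and 11 of 20 H3K27ac regions were shared. Its H3K23su cover was nevertheless 12.7 and 11.5 kb in HCT15-Pa and 15.7 and 16.6 kb in HCT15-FR, a ratio of 1.33, and its H3K27ac cover 15.1 and 14.0 kb against 16.9 and 17.0 kb. After scaling, the H3K27ac difference turned to -0.291 kb. The H3K27ac TSS percentile was 74.8 and 78.8 against 82.4 and 79.2. In H3K23su the percentile of the strongest TSS peak was 92.0 and 67.1 against 76.4 and 78.7. The 92.0 came from a separate region of 170 bp, 0.922 kb before the TSS, where HCT15-Pa replicate 2 had no peak and HCT15-FR had 6.25 and 60.1. On the shared TSS region the H3K23su percentiles were 76.6 and 67.1 against 76.4 and 78.7, which overlap.

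AREG, amphiregulin, lies at chr4:75310853-75320722 and had the largest gap between the lines in the score of its TSS peak of the 10 genes in both marks. Its H3K23su percentile was 87.1 and 70.7 in HCT15-Pa and 96.7 and 98.2 in HCT15-FR, with scores of 6.17 and 5.07 against 9.87 and 11.1. Its H3K27ac percentile was 86.4 and 83.9 against 97.1 and 98.0, with scores of 8.08 and 7.61 against 17.2 and 19.0. The covered length at the TSS was also larger in HCT15-FR, 736 and 754 bp against 912 and 934 bp in H3K23su and 872 and 837 bp against 952 and 934 bp in H3K27ac. The same held for 45.8% of all genes with TSS peaks in the 4 libraries in H3K23su and 35.0% in H3K27ac. The window as a whole did not follow in H3K23su, with 5.04 and 6.69 kb in HCT15-Pa and 6.54 and 5.33 kb in HCT15-FR (exact permutation p = 1.00). In H3K27ac it was 9.43 and 8.74 kb against 11.7 and 10.3 kb. An FR-only H3K27ac region of 275 bp lay inside the gene, in an intron 6.21 kb after the TSS, with percentiles of 65.8 and 82.7 and no H3K23su region on it.

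In hg19 AREG has a near-identical copy, AREGB, at chr4:75480629-75490486. Of the 100-base words in the 2 kb either side of the AREG TSS, 79.9% stand again elsewhere on chromosome 4, and of those in the gene 85.2%, so few single reads of such a length would map to 1 place. The study's reads were longer and paired, and how many of them map to 1 place was not measured. The AREG values are therefore uncertain to an unknown extent. At the AREGB TSS the H3K23su percentile was 89.9 and 71.6 in HCT15-Pa and 88.9 and 88.6 in HCT15-FR, which overlap, and the H3K27ac percentile 80.0 and 77.1 against 90.0 and 89.5, which do not. The EREG gene had 0% such words.

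The 250 bases before the TSS of the 2 genes with higher TSS percentiles in both marks, AREG and HBEGF, are shown as chr4:75310603-75310852 on the plus strand and chr5:139726189-139726438 on the minus strand (hg19, each 5′ to 3′).
AREG promoter: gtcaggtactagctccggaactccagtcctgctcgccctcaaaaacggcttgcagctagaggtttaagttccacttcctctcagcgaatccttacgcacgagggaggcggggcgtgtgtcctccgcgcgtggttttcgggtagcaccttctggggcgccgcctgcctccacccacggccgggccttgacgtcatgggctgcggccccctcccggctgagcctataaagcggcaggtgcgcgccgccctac
HBEGF promoter: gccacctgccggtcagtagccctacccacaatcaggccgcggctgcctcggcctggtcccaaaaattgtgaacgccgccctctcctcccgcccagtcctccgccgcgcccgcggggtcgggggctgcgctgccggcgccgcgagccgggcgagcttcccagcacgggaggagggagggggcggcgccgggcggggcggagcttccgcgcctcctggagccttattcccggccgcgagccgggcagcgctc
None of the 5 motifs has its letters in either stretch. Over 20136 promoters of the same length, the share with a match ran from 2.12% for FOXA to 9.83% for TEAD. Guanine and cytosine made up 65.2% of the AREG and 76.4% of the HBEGF stretch, and 100% of the 30-base words of the AREG stretch stand again on chromosome 4, but 0% of those of HBEGF on chromosome 5.

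Far from AREG, 96.6 kb after its TSS, a stretch between genes was Pa-only in both marks. It had H3K23su percentiles of 31.6 and 80.0 and H3K27ac percentiles of 74.5 and 62.3 in HCT15-Pa. The strongest FR-only H3K27ac region of the AREG window lay beyond it, 110 kb after the TSS, with percentiles of 69.3 and 79.6. The AREGB TSS was nearer to both than that of AREG, 59.4 kb from this region and 73.2 kb from the Pa-only stretch. On the other side of AREG, in the part of the cluster that AREG and EREG share, 2 H3K23su regions were FR-only and lay on H3K27ac regions shared by all 4 libraries. The stronger of them was in an EREG intron at chr4:75241119-75242047, 10.7 kb after the EREG TSS, with percentiles of 82.9 and 81.0.

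EREG, epiregulin, lies at chr4:75230862-75254466. Its window was covered for 4.42 and 4.99 kb in HCT15-Pa and 6.76 and 6.62 kb in HCT15-FR by H3K23su, a ratio of 1.42, and for 6.72 and 6.50 kb against 10.2 and 9.58 kb by H3K27ac, a ratio of 1.49, where the whole lists had 1.19. It had 3 FR-only regions in each mark and 0 Pa-only. The FR-only H3K27ac regions 58.2 and 86.2 kb after the EREG TSS stood nearer to the AREG TSS and were counted for AREG as well. The strongest was the latter, the 275-bp region in the AREG intron, with percentiles of 65.8 and 82.7. At the EREG TSS the order was the reverse in H3K27ac, with percentiles of 92.0 and 95.7 in HCT15-Pa and 81.6 and 83.4 in HCT15-FR. The H3K27ac covered length there was 1656 and 1641 bp against 1388 and 1377 bp. In H3K23su the percentiles of 93.7 and 90.5 against 87.6 and 94.6 overlapped, but the covered length was again smaller in HCT15-FR, 1471 and 1774 bp against 989 and 983 bp. Of all genes with TSS peaks in the 4 libraries, 6.32% had a smaller covered length in H3K23su and 10.9% in H3K27ac. AREG and EREG, neighbours with overlapping windows, differed in the direction of their H3K27ac TSS percentile. A stretch FR-only in both marks lay 97.3 kb before the EREG TSS, in an intron of MTHFD2L, with H3K23su percentiles of 29.5 and 62.9 and H3K27ac percentiles of 45.7 and 61.0. This stretch stood nearer to the TSS of EPGN, at 40.6 kb.

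The stretches of the AREG-EREG cluster that belonged to 1 line in both marks are shown as chr4:75407270-75407569 and chr4:75133424-75133723 (hg19, plus strand), as examples of either direction within 1 cluster.
AREG Pa-only: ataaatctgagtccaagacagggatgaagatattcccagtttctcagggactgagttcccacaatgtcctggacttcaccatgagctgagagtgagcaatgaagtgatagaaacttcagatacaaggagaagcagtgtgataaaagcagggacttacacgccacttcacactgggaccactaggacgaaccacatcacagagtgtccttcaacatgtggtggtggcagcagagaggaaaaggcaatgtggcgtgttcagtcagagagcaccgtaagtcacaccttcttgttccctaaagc
EREG FR-only: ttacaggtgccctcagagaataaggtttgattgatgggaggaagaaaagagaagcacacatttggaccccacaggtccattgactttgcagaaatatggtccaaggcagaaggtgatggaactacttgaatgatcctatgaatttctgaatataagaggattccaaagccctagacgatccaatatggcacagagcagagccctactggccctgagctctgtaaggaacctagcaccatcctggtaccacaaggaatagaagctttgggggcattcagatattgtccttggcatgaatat
Neither holds the letters of any of the 5 motifs, and 0% of their 30-base words stand again on chromosome 4.

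TGFA, transforming growth factor alpha, lies at chr2:70674416-70781325 on the minus strand. Its H3K27ac TSS percentile was 83.2 and 85.7 in HCT15-Pa and 91.9 and 89.9 in HCT15-FR, and in H3K23su the libraries overlapped, with 81.7 and 90.9 against 91.1 and 87.1. It had 5 FR-only regions in each mark, which included 3 in its introns in each, with 1 Pa-only region in H3K23su and 3 in H3K27ac. Its cover was 5.95 and 8.75 kb against 8.82 and 7.56 kb in H3K23su (exact permutation p = 0.667) and 8.98 and 9.91 kb against 11.9 and 10.0 kb in H3K27ac. After scaling, both differences turned, to -0.551 kb and -0.223 kb. The strongest FR-only H3K23su region lay in a TGFA intron 38.9 kb after the TSS, with percentiles of 66.1 and 66.4, and the strongest FR-only H3K27ac region 92.1 kb before the TSS in an intron of ADD2, with 53.0 and 59.8. An intronic stretch 24.7 kb after the TSS was FR-only in both marks, with H3K23su percentiles of 9.45 and 67.3 and H3K27ac percentiles of 51.2 and 67.1. A stretch 62.5 kb before the TSS, in an intron of ADD2, was Pa-only in both, with H3K23su percentiles of 66.1 and 24.8 and H3K27ac percentiles of 15.1 and 38.0. At 162 kb after the TSS, beyond the gene, an FR-only H3K23su region overlapped a Pa-only H3K27ac region, with percentiles of 19.2 and 66.7 for the first and 31.6 and 24.3 for the second.

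The 2 TGFA stretches are shown as chr2:70756102-70756401 and chr2:70843515-70843814 (hg19, plus strand).
TGFA FR-only: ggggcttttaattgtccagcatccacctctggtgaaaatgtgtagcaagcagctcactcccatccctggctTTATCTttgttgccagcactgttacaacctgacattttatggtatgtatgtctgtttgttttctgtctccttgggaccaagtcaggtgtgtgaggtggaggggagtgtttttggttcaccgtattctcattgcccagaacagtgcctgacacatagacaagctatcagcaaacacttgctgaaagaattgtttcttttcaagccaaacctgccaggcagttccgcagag
TGFA Pa-only: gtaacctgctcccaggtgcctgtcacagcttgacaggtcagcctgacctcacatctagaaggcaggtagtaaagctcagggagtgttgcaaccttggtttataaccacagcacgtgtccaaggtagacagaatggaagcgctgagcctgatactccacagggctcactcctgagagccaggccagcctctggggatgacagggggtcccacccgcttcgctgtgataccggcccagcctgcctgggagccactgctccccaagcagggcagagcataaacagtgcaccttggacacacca
The first holds 1 GATA match on the minus strand, as 12.1% of the stretches at all H3K23su regions and 17.8% of those at FR-only regions did, and the second holds none.

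HBEGF, heparin-binding EGF-like growth factor, lies at chr5:139712428-139726188 on the minus strand and had 2 shared regions near its TSS in each mark. The stronger one stood about 1.48 kb into the gene in H3K23su and 1.52 kb in H3K27ac. Its percentile was 88.7 and 86.0 in HCT15-Pa and 92.0 and 91.1 in HCT15-FR in H3K23su, and 78.5 and 71.2 against 88.5 and 91.3 in H3K27ac. The region on the TSS itself had percentiles of 40.2 and 56.4 against 69.6 and 68.3 in H3K23su, and of 76.6 and 68.3 against 76.8 and 82.6 in H3K27ac, so it was separated in the same direction, though narrowly in H3K27ac. The H3K27ac covered length at the TSS went the other way, 1570 and 1483 bp in HCT15-Pa against 1467 and 1383 bp in HCT15-FR. Of all genes with TSS peaks in the 4 libraries, 10.9% were smaller in this way. In H3K23su this length overlapped, with 1434 and 1186 bp against 1454 and 1263 bp. The window was covered for 7.10 and 7.91 kb against 9.75 and 10.9 kb in H3K23su, a ratio of 1.37, and for 9.29 and 9.72 kb against 12.5 and 12.9 kb in H3K27ac, a ratio of 1.34, beside 1.19 for the whole lists. It had 2 FR-only and 1 Pa-only H3K23su regions and 1 FR-only H3K27ac region. The stronger FR-only H3K23su region stood 79.3 kb after the TSS, beyond the gene, with percentiles of 70.0 and 40.7, and the Pa-only one 36.9 kb before it with 26.4 and 18.4. The H3K27ac region lay between genes 27.5 kb after the TSS, with percentiles of 32.9 and 42.1.

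Over the 10 genes, 7 of 19 FR-only H3K23su regions were FR-only in H3K27ac as well, which is 36.8% (exact 95% interval 16.3 to 61.6) beside 35.8% over the genome. They were the 4 at MET and 1 each at EGFR, EREG and TGFA. Of the other FR-only H3K23su regions 4 lay on H3K27ac regions shared by all 4 libraries, and 2 touched no H3K27ac region. Of 6 Pa-only H3K23su regions 3 were Pa-only in H3K27ac too, at AREG, TGFA and MET, which is 50.0% (exact 95% interval 11.8 to 88.2) beside 19.8%. Among the 73 H3K23su regions held by all 4 libraries, 56 met an H3K27ac region that was likewise shared, 76.7% beside 80.3%.

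Among 46 other genes of these pathways, 36 had TSS peaks in all 4 H3K23su libraries and 38 in all 4 H3K27ac libraries, beside 54.7% and 59.0% of all genes, and 4 had none in any library, the receptor ERBB4 and the ligands EPGN, NRG3 and NRG4. The window was more covered in both HCT15-FR libraries for 24 of the 46 genes in H3K23su and 30 in H3K27ac, beside 54.8% and 55.0% of all genes, and less for 5 in each, beside 11.8% and 13.4%. The first count is near its background, and the counts by list that follow are too small to be set apart from it. Of the 9 shedding and processing genes 4 and 7 were more covered, of the 15 adaptors and effectors 8 and 10, of the 8 negative regulators 6 and 6, of the 5 partners of MET 3 and 3, and of the 9 further receptors and ligands 3 and 4. Of the 36 genes with H3K23su and 38 with H3K27ac TSS peaks in all 4 libraries, the percentile was higher in HCT15-FR for 9 and 6, beside 28.4% and 22.1% of all such genes, and lower for 5 and 9, beside 15.6% and 28.2%, so that all 4 counts lie somewhat below the background. Of the 36 genes with TSS peaks in all 8 libraries, ERRFI1 and CBLB, which restrain EGFR and its relatives, were higher in both marks, beside 8.34% of all such genes. ADAM10, a sheddase, was lower in both, beside 6.03%. The marks went opposite ways at STAT3, PTPN11 and SPINT2, higher in H3K23su and lower in H3K27ac, beside 6.32% of all such genes. SOS1 had the reverse, beside 2.50%.

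Regions of 1 line at the TSS were found at 3 of these 46 genes. In H3K23su 2 genes had an FR-only and 1 a Pa-only region there, beside 3.64% and 2.10% of all genes, and in H3K27ac 1 and 1, beside 2.66% and 2.61%, which is about the background. CD44, a co-receptor of MET, had TSS peaks in the HCT15-Pa libraries alone, with percentiles of 34.0 and 77.7 in H3K23su and 43.8 and 51.4 in H3K27ac. The neuregulin gene NRG2 had an FR-only region within 2 kb of the TSS in both marks, beside peaks there in every library. NRP1, which encodes a co-receptor of several growth factors, had an FR-only H3K23su region beside a shared one, and 4 stretches FR-only in both marks in its window, as many as MET.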

How the data were processed

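Peak lists of 8 CUT&Tag libraries were used. According to the study's methods, the authors used Bowtie2 and hg19, discarded duplicates and reads that were not proper pairs with 1 place in the genome, and ran MACS2 on each library, in broad mode for H3K27ac. The deposited score is the −log10 of the MACS2 P value. The lists hold no counts or summits, and the spike-in DNA named in the labels was not used here. Chromosome names and lengths matched GRCh37, and genes came from GENCODE release 44 on that build.

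The TSS is that of the Ensembl canonical transcript, and windows ran 100 kb beyond the gene record. Overlapping or touching peaks were merged, and 1 bp of overlap counted as presence. Covered length was compared by two-sided exact permutation tests, other values were counted beside all protein-coding genes, and shares have exact 95% binomial intervals that cover counting error only. Named were all 10 genes, regions at their TSSs, the strongest FR-only and Pa-only region per gene and mark, and regions of 1 line in both marks. The members and lists were chosen with earlier results of these data known. Sequences came from GRCh37, and that of 1 region is not reported here. Scripts were tested on simulated data with planted regions. The tools were scipy 1.17.1, pandas 2.3.3 and numpy 2.4.6 under Python 3.11.15, samtools 1.23.1 with pysam 0.24.0 for the genome, and matplotlib 3.10.9.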

Additional observations from a re-analysis of the deposited data

Results flagged for a closer look

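For 2 genes the H3K23su and H3K27ac libraries differed in opposite directions at the TSS, with every HCT15-FR library on one side of every HCT15-Pa library in each mark. For EGFR the mean percentile of the strongest TSS peak was 78.8 in HCT15-Pa and 64.1 in HCT15-FR in H3K23su, a difference of -14.7 percentile points, and 71.3 and 73.3 in H3K27ac, a difference of 2.00. For MET it was 70.0 and 84.7 in H3K23su, a difference of 14.7, and 89.5 and 78.8 in H3K27ac, a difference of -10.7. The difference between the marks was not tested.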

How the results depend on the processing

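The covered length in the windows was larger in HCT15-FR under every alternative run, by 16.3 to 28.8 kb in H3K23su and by 17.5 to 33.8 kb in H3K27ac, apart from 9.92 and 10.2 kb with the scaled lists, an alternative chosen after seeing the data. Scaling also took the number of genes with more H3K27ac cover from 9 to 4.

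With the stronger 50% of each list, FR-only regions were 10 in H3K23su and 14 in H3K27ac and Pa-only H3K27ac regions 7. With windows of 50 kb either side, Pa-only regions were 2 in H3K23su and 7 in H3K27ac. Fewer peaks or less sequence entered by construction. Leaving out 1 library gave 32 to 45 FR-only and 7 to 35 Pa-only H3K23su regions, 35 to 48 FR-only and 13 to 32 Pa-only H3K27ac regions, and 0 to 1 genes with less H3K23su cover. At the 5′ end of the gene record 8 genes had TSS peaks in all 4 libraries.

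Of 180 differences of single genes under the alternatives 172 kept their direction. Those that turned were, in H3K23su, AREG, from -0.749 kb without HCT15-Pa replicate 1 to 0.896 kb without HCT15-Pa replicate 2 (-0.530 kb without HCT15-FR replicate 1, and -0.987 kb scaled), and TGFA, from -0.556 kb to 2.24 kb without the same 2 libraries (-0.551 kb scaled). In H3K27ac they were ERBB3 at -0.291 kb and TGFA at -0.223 kb, both scaled, and HBEGF at -0.0485 kb with the stronger 50% of each list. The cause was not tested.

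The deviations in covered length of same-numbered libraries of the 2 lines correlated at 0.00647 in H3K23su and -0.00111 in H3K27ac over 20136 genes. No pairing by replicate number was seen in this measure, which cannot show whether such libraries shared a preparation. With the replicate block the differences of 25.2 and 27.5 kb had an exact sign-flip p of 0.5, the smallest that 2 pairs allow, and 7 genes in place of 6 had more H3K23su cover within each pair.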
